A study of Mus musculus with 150 samples.

Results

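The 7 genes described here, Pttg1, Mat2b, Thg1l, Tnip1, Slc36a2, Sec14l2 and Sec14l4, lie on mouse chromosome 11 and make up 7 of the 17097 genes that a lung expression array measured. They were chosen from the measured values: in mice that breathed clean air, each differed between the knockout and the wild-type line and again between the transgenic and the knockout line. Each gene is read from its brightest probe set, judged by the mean of all 150 arrays, and values are log2 levels as deposited, so that a difference of 1 is a 2-fold change. All 7 passed the filter on dim genes, as did 15695 genes in all, of which 1289 were on chromosome 11.

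The arrays came from whole lungs of adult male mice, 1 array per animal, that inhaled 0 or 120 ppm styrene and were sampled at 26, 52, 78 or 104 weeks. WT mice were C57BL/6, with 11 air and 20 styrene arrays and no air group at 26 weeks. KO mice, also C57BL/6, were CYP2F2(-/-). They lacked the lung cytochrome P450 that oxidises styrene in club cells, and gave 20 air and 19 styrene arrays. TG mice, also C57BL/6, were labelled CYP2F2(-/-),2F1,SA13,2B6. They too lacked Cyp2f2 and carried human cytochrome P450 transgenes, with 19 air and 19 styrene arrays. The promoter of the transgenes was not given in the sources used here. CD-1 mice, an outbred stock, gave 21 air and 21 styrene arrays. All lines came from Taconic, and the 31 groups held 2 to 10 mice each. The treatment text speaks of 5 days per week and 6 hours per day over 1 or 4 weeks, which differs from the weeks given in the titles and used here.

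The 7 genes have unlike roles. Pttg1 encodes securin, which holds the protease separase inactive until the cell has aligned its chromosomes and is then destroyed, letting sister chromatids part. Mat2b is the regulatory subunit of the methionine adenosyltransferase that makes S-adenosylmethionine, the main methyl donor. Thg1l adds the extra guanosine that marks histidine transfer RNA, and Tnip1 is a ubiquitin-binding partner of A20 that restrains NF-kappaB signalling. Slc36a2 is a proton-coupled transporter of small amino acids such as glycine and proline. Sec14l2 and Sec14l4 belong to the SEC14-like lipid-binding proteins, of which Sec14l2 binds tocopherol and stimulates squalene conversion.

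RefSeq promoter entries on build GRCm38.p6 matched 5 of the 7 genes, in 6 windows. The 3 below are shown as examples of genes that were lower in exposed KO mice. Pttg1 and Mat2b lie near each other on the chromosome, and Sec14l2 lies apart. Thg1l, which was also lower and had promoter entries, is not shown. Each run is the 250 bases before the annotated start, read 5′ to 3′ on the minus strand, and capitals mark matches to 4 motifs searched on both strands. Those were the CCAAT box, the GC box with the letters GGGCGG, the E-box with the letters CACGTG and the cell cycle homology element with the letters TTTGAA, and overlapping matches were allowed. The windows are chr11:43425982-43426231 for Pttg1, chr11:40692683-40692932 for Mat2b and chr11:4118730-4118979 for Sec14l2.
Pttg1: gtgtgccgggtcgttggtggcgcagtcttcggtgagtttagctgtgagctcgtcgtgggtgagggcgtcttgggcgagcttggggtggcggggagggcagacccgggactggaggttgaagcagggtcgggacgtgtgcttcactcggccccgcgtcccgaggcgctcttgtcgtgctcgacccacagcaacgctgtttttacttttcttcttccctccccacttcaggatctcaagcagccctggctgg
Mat2b: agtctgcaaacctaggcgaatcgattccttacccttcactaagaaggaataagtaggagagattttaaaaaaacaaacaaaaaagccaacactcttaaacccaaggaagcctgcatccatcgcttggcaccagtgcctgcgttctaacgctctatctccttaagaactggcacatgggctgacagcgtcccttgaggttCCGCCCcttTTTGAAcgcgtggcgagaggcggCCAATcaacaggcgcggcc
Sec14l2: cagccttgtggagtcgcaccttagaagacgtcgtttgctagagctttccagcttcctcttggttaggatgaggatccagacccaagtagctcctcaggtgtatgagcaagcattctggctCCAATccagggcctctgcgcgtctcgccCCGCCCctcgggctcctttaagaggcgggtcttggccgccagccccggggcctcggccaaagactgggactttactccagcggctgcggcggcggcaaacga

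The Pttg1 window held none of the 4 motifs. The Mat2b window held a CCAAT box with its first base 19 bases before the start, a cell cycle homology element at 42 bases and a GC box on the other strand at 51 bases. In the Sec14l2 window, a CCAAT box began 130 bases before the start and a GC box lay on the other strand at 102 bases. Over 32851 promoter windows of the same length, 33.8% held a CCAAT box, 32.7% a GC box, 16% a cell cycle homology element and 6.02% an E-box on either strand. Each match is a description of these letters, and no motif was shared by all 3 windows.

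Cyp2f2, the targeted gene, was lower in every KO and TG mouse than in every WT mouse. Exposed KO mice ranged from 11.82 to 12.55 and exposed TG mice from 11.89 to 12.40, against 12.95 to 13.42 in exposed WT mice. The exposed KO minus WT difference was -1.01 (adjusted p = 5.14e-31 by limma) and the TG minus WT difference was -1.11 (adjusted p = 6.75e-34). The position of this probe set relative to the deletion was not given in the sources used here, and the gene cannot tell KO from TG mice. Markers of alveolar type 2 and club cells averaged 11.39 to 11.82 and 12.55 to 13.39 in exposed WT lungs, and alveolar type 1 markers 11.98 to 12.34.

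Exposed TG mice at 78 and 104 weeks stood apart from the other exposed groups. In each of those weeks the TG minus KO comparison called 5090 genes (32.4%) and 6492 genes (41.4%), against 6 genes at 26 weeks and 10 at 52 weeks. By contrast, KO minus WT called 24 to 57 genes in any 1 week. These late arrays were set against exposed groups of both late weeks: WT arrays against KO, KO against WT and TG against both. Air groups were taken from the same lines. All 10 WT arrays were nearer their own week, as were 8 of 10 KO arrays. Of the TG arrays, 1 of 3 at 78 weeks and 2 of 6 at 104 weeks were nearer their own week. At 104 weeks, 5 of 6 exposed TG arrays were closest to the air groups of that week (r of 0.45 to 0.61), as was 1 of 5 KO arrays and none of the 5 WT arrays. The part of this in the results was not tested. The counts of the 7 genes and their called differences are given over all 4 weeks and again over weeks 26 and 52. No difference of the 7 genes that missed the threshold over all weeks passed it over those 2 weeks.

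The values that chose the 7 genes are given as a description, and calls made on them are no test of the choice. In air-breathing mice, KO minus WT differences over 52 to 104 weeks were -2.58 for Pttg1, -1.54 for Sec14l4, -0.70 for Sec14l2, -0.63 for Slc36a2, -0.53 for Mat2b, -0.50 for Thg1l and 0.41 for Tnip1. The TG minus KO differences in air had the opposite sign for each, from 2.20 for Pttg1 to 0.35 for Mat2b and -0.26 for Tnip1. In air, limma called 50 of 15695 genes in KO minus WT and 54 in TG minus KO, at an adjusted p under 0.05. Of 13 genes called in both, 8 were on chromosome 11: the 7 genes and A430108G06Rik (-0.74 and 0.51). The 7 are in that count by their choice, so the count lends them no support. Just outside the choice were chromosome 11 genes called in only 1 of the air comparisons, among them Ccdc157 (-0.64 and 0.34), Mtfp1 (-0.32 and 0.42) and Camk2b (-0.89 and -0.22). Both comparisons share the air KO arrays.

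Styrene-exposed mice were other animals, which the choice did not use, and there 6 of the 7 genes differed between KO and WT. Pttg1, Mat2b, Thg1l, Slc36a2 and Sec14l2 were lower in KO lungs, Tnip1 was higher, and Sec14l4 missed the threshold. Over all genes tested, limma called 336 (2.14%) at an adjusted p under 0.05. The median difference of the 7 genes was -0.54, against -0.01 over all genes. In a lung extract, fewer cells of a type and less RNA per cell cannot be told apart. Over weeks 26 and 52 alone, 4 of the 7 genes were called (Pttg1, Mat2b, Thg1l and Slc36a2), beside 1.68% of all genes.

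TG minus KO in exposed mice shares the KO arrays with that comparison. Here 3 of the 7 genes were called, Pttg1, Thg1l and Slc36a2, and all 3 were higher in TG lungs, beside 75 genes in all (0.478%). That share was not stable: it was 32.4% at 78 weeks alone, 41.4% at 104 weeks alone and 26.2% over weeks 26 to 78. The 7 genes had a median difference of 0.37, against 0.00 over all genes. Pttg1 alone was called over weeks 26 and 52, beside 0.204% of genes. Against WT mice, exposed TG mice differed in 1 of the 7 genes, Mat2b, while 516 genes were called in all (3.29%), and over weeks 26 and 52 the count was 0 of 7, with 75 genes called in all. Outbred CD-1 mice differed from WT mice in 3 of the 7, beside 2707 genes in all (17.2%), and in 2 of the 7, Pttg1 and Tnip1, over weeks 26 and 52, beside 10.2% of genes.

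**Figure D1:**
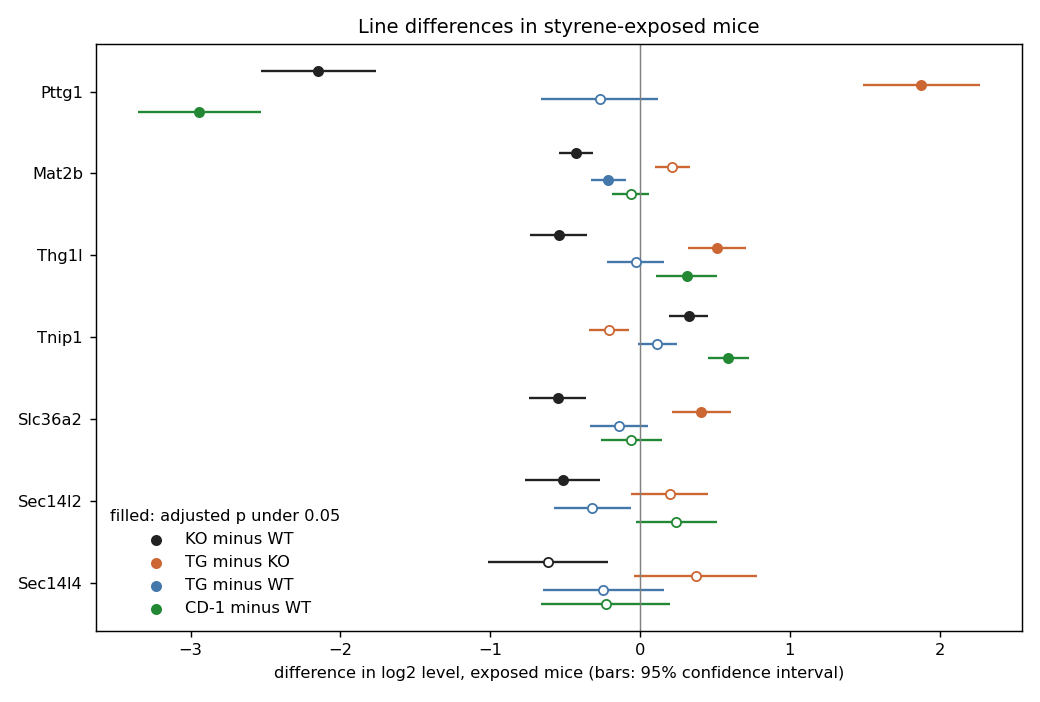
Differences in log2 level between lines in styrene-exposed mice for the 7 genes, as points with 95% confidence intervals; filled points have an adjusted p under 0.05. Pttg1 shows the largest differences, at -2.15 for KO minus WT, 1.88 for TG minus KO and -2.94 for CD-1 minus WT.

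Pttg1, encoding securin, was the gene with the largest line differences. Exposed WT mice lay between 11.52 and 12.06 with a median of 11.83. Exposed KO mice at 26 weeks read 11.29, 11.13, 9.06 and 11.04, and those at 52 weeks 9.16, 8.97, 8.97, 9.07 and 8.91. At 78 weeks they read 8.45, 11.34, 8.77, 11.16 and 8.91, and at 104 weeks 9.07, 8.84, 8.94, 8.78 and 11.37. All 19 exposed KO mice were below all 20 exposed WT mice, yet most sat near 9 and a few above 11. The KO minus WT difference was -2.15 (SE 0.194, 95% interval -2.53 to -1.76, 4.43-fold lower, adjusted p = 5.82e-17). Over weeks 26 and 52 it was -1.95 (adjusted p = 1.83e-07).

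The same spread appeared in air-breathing KO mice. Their Pttg1 levels were 9.09, 9.08, 11.16, 8.68 and 8.81 at 26 weeks and 8.83, 11.28, 8.64, 8.85 and 9.36 at 52 weeks. At 78 weeks they were 9.27, 9.02, 8.67 and 11.04, and at 104 weeks 8.79, 8.47, 8.42, 8.36, 8.91 and 8.77. Over both exposures, 30 KO mice lay at or below 9.36 and 9 at or above 11.04, with no mouse in the gap of 1.68 between them. The upper range held 3 of 20 air and 6 of 19 styrene mice. The highest KO mouse, at 11.37, was below the lowest WT mouse at 11.44. In 6 of the 8 KO groups both ranges occurred, and in the other two, air at 104 weeks and styrene at 52 weeks, all mice were low.

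In Pttg1, TG mice lay nearer to WT mice than KO mice did. Exposed TG mice ranged from 11.06 to 12.00 with a median of 11.72, and all 19 were above the exposed KO mean, 13 of them above every exposed KO mouse. The TG minus KO difference was 1.88 (SE 0.198, 3.68-fold, adjusted p = 1.09e-12), and 1.67 over weeks 26 and 52 (adjusted p = 5.66e-05). Exposed TG minus WT was -0.27 with an interval of -0.66 to 0.12 (adjusted p = 0.523), an interval that includes 0. That interval rests on a variance shared by all 31 groups, the widely spread KO groups among them. Of the exposed TG mice, 15 of 19 were below the WT mean and 4 above it, and 6 were below every exposed WT mouse. Over both exposures, 26 TG mice lay at or above 11.59, 11 lay between 11.01 and 11.27, below every WT mouse, and 1 air mouse at 52 weeks read 8.75.

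In exposed CD-1 mice Pttg1 was lower than in WT mice. They ranged from 8.36 to 9.58 with a median of 8.93, and all 21 lay below all exposed WT mice, with a difference of -2.94 (SE 0.208, 7.68-fold lower, adjusted p = 5.17e-25). Over weeks 26 and 52 it was -2.89 (adjusted p = 6.97e-15). The order of mean exposed levels was WT at 11.84 ± 0.15 (SD, n = 20), TG at 11.60 ± 0.31 (n = 19), KO at 9.64 ± 1.11 (n = 19) and CD-1 at 8.96 ± 0.34 (n = 21). The ranges of KO and CD-1 overlapped, and the difference between them was not tested. In air the means were 11.73 ± 0.15 (n = 11) in WT, 11.42 ± 0.70 (n = 19) in TG, 9.18 ± 0.89 (n = 20) in KO and 8.82 ± 0.53 (n = 21) in CD-1.

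**Figure D2:**
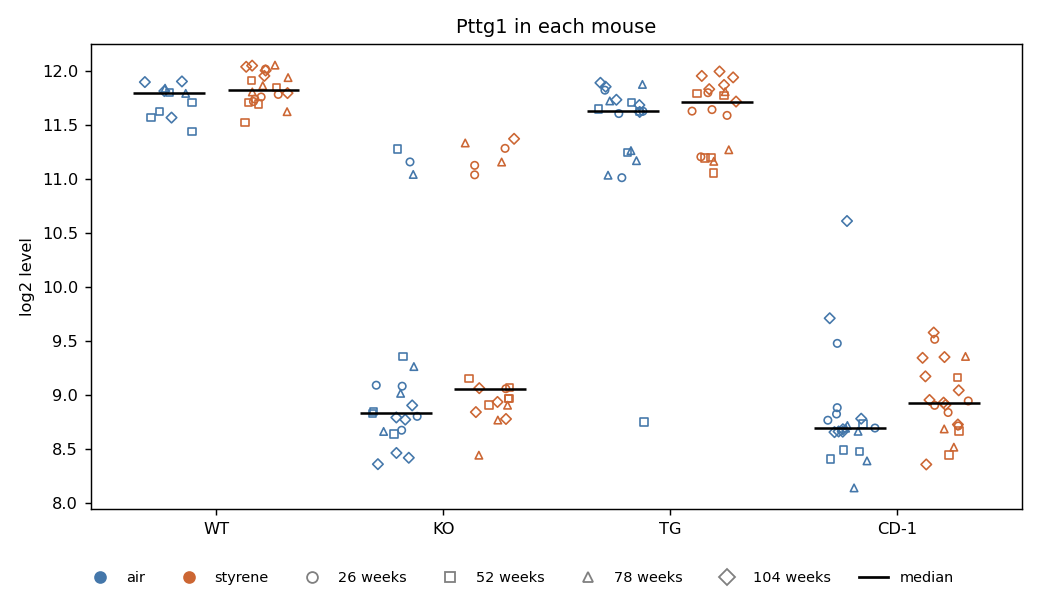
Log2 level of Pttg1 in every mouse by line, exposure and week, 1 point per mouse. WT mice lie at 11.44 and above, KO mice fall into a range up to 9.36 and one from 11.04 to 11.37, and all but 1 TG mouse lie above 11.

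Pttg1 was the only gene of the 7 with several probe sets. All 3 were lower in exposed KO than WT mice, at -2.15, -1.55 and -0.86 (adjusted p = 7.46e-17, 4.07e-13 and 3.32e-10 over 26071 probe sets). TG minus KO was 1.88, 1.17 and 0.83 in the same order. Mean levels of the second were 9.57 in WT, 9.25 in TG, 7.90 in KO and 6.69 in CD-1, and those of the third 5.76, 5.63, 4.68 and 4.11, so that the order of lines was alike in each. Tested over probe sets, 8 of the 9 probe sets of the 7 genes were called for KO minus WT, beside 1.79% of all probe sets, and 5 for TG minus KO, beside 0.414%.

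By week, described without a test, exposed KO minus WT in Pttg1 was -1.18 at 26, -2.72 at 52, -2.12 at 78 and -2.57 at 104 weeks. TG minus KO was 0.95, 2.39, 1.69 and 2.49 in the same order. The fifth exposed KO mouse at 104 weeks, 1 of the 2 KO arrays not nearer their own week, had the highest exposed KO level of Pttg1 (11.37) and Mat2b (9.10) and the lowest of Slc36a2 (6.74). The sign of the Pttg1 differences was the same in each week, and 26 weeks, when 3 of 4 exposed KO mice were in the upper range, gave the smallest values.

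Mat2b, the regulatory subunit for S-adenosylmethionine synthesis, was lower in KO lungs. Exposed WT mice ranged from 8.63 to 9.22 with a median of 9.05, and exposed KO mice from 8.03 to 9.10 with a median of 8.62. The ranges overlapped, but 18 of 19 KO mice were below the WT mean and 10 below every WT mouse. KO minus WT was -0.43 (SE 0.0571, adjusted p = 8.65e-09), and -0.38 over weeks 26 and 52 (adjusted p = 0.00365). TG mice had a median of 8.84 between the others. Their difference from WT mice was -0.21 (SE 0.0579, adjusted p = 0.0206), which became -0.14 (adjusted p = 0.663) over weeks 26 and 52, 0.05 at 104 weeks alone, and -0.19 (adjusted p = 0.0599) without the first TG mouse at 78 weeks. Against KO mice the TG difference was 0.22 with an interval of 0.10 to 0.33 and an adjusted p of 0.056, and 0.24 (adjusted p = 0.38) over weeks 26 and 52. Over all weeks, leaving out any of 7 arrays brought that adjusted p under the threshold, to as low as 0.00511 without the fifth KO mouse at 104 weeks. CD-1 mice, with a median of 8.97, differed from WT mice by -0.06, with an interval of -0.18 to 0.06.

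Thg1l, the histidine transfer RNA guanylyltransferase, was the dimmest of the 7, close to the filter level of 2.99 to 3.19. Exposed WT mice ranged from 3.65 to 4.57 with a median of 4.07, and exposed KO mice from 3.01 to 4.00 with a median of 3.56. All 19 KO mice were below the WT mean and 11 were below every WT mouse. KO minus WT was -0.54 (SE 0.0954, adjusted p = 2.69e-05), and -0.53 over weeks 26 and 52 (adjusted p = 0.0233). Exposed TG mice ranged from 3.58 to 4.50, with all 19 above the KO mean and 13 above every KO mouse. The TG mean exceeded the KO mean by 0.51 (SE 0.0978, adjusted p = 0.000729), and 0.41 (adjusted p = 0.353) over weeks 26 and 52. TG minus WT was -0.03 with an interval of -0.22 to 0.16. CD-1 mice were higher than WT mice by 0.31 (SE 0.102, adjusted p = 0.0207), with 15 of 21 above the WT mean. That call was lost over weeks 26 and 52 (adjusted p = 0.201) and without any of 4 arrays: the first WT mouse at 78 weeks (0.0899), the second CD-1 mouse at 26 weeks (0.0517), the second at 52 weeks (0.0572) or the first at 78 weeks (0.0841).

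Tnip1, the A20 partner, was the one gene of the 7 that was higher in KO lungs. Exposed WT mice ranged from 7.51 to 8.51 with a median of 7.82, and exposed KO mice from 7.67 to 8.97 with a median of 8.27. The ranges overlapped widely, with 15 of 19 KO mice above the WT mean. KO minus WT was 0.32 (SE 0.0644, adjusted p = 0.000364), and 0.26 (adjusted p = 0.0918) over weeks 26 and 52. CD-1 mice, from 8.01 to 9.01, were all above the WT mean, with a difference of 0.59 (SE 0.0691, adjusted p = 3.67e-12), and 0.51 over weeks 26 and 52 (adjusted p = 3.22e-05). TG minus KO was -0.21 with an interval of -0.34 to -0.08 and an adjusted p of 0.132 (0.437 over weeks 26 and 52), and by week it was -0.26, -0.21, 0.25 and -0.61. Alveolar macrophage markers gave 0 of 4 calls in exposed KO minus WT (1 at an unadjusted p under 0.05). In CD-1 minus WT, 2 of 4 were higher, Siglecf and Mrc1. The mean level of that list ranged from 7.33 to 9.74 in exposed WT, 7.83 to 9.43 in KO and 7.85 to 9.46 in CD-1 mice, and its part in the Tnip1 levels was not tested.

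Slc36a2, the amino acid transporter, was lower in KO lungs. Exposed WT mice ranged from 7.28 to 8.20 with a median of 7.94, and exposed KO mice from 6.74 to 8.20 with a median of 7.29. Of the KO mice, 17 of 19 were below the WT mean. KO minus WT was -0.55 (SE 0.097, adjusted p = 2.83e-05), and -0.60 over weeks 26 and 52 (adjusted p = 0.00917). Exposed TG mice ranged from 7.32 to 8.27, and 17 of 19 were above the KO mean. The difference was 0.41 (SE 0.0994, adjusted p = 0.0225), but 0.48 with an adjusted p of 0.219 over weeks 26 and 52. That call was also lost without any of 5 arrays: the second TG mouse at 78 weeks (0.163) or the second KO mouse at 26 weeks (0.062), the fourth at 26 weeks (0.0731), the third at 52 weeks (0.0505) or the fifth at 104 weeks (0.0663). TG minus WT was -0.14 with an interval of -0.34 to 0.05, and CD-1 minus WT was -0.06 with an interval of -0.26 to 0.15.

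**Figure D3:**
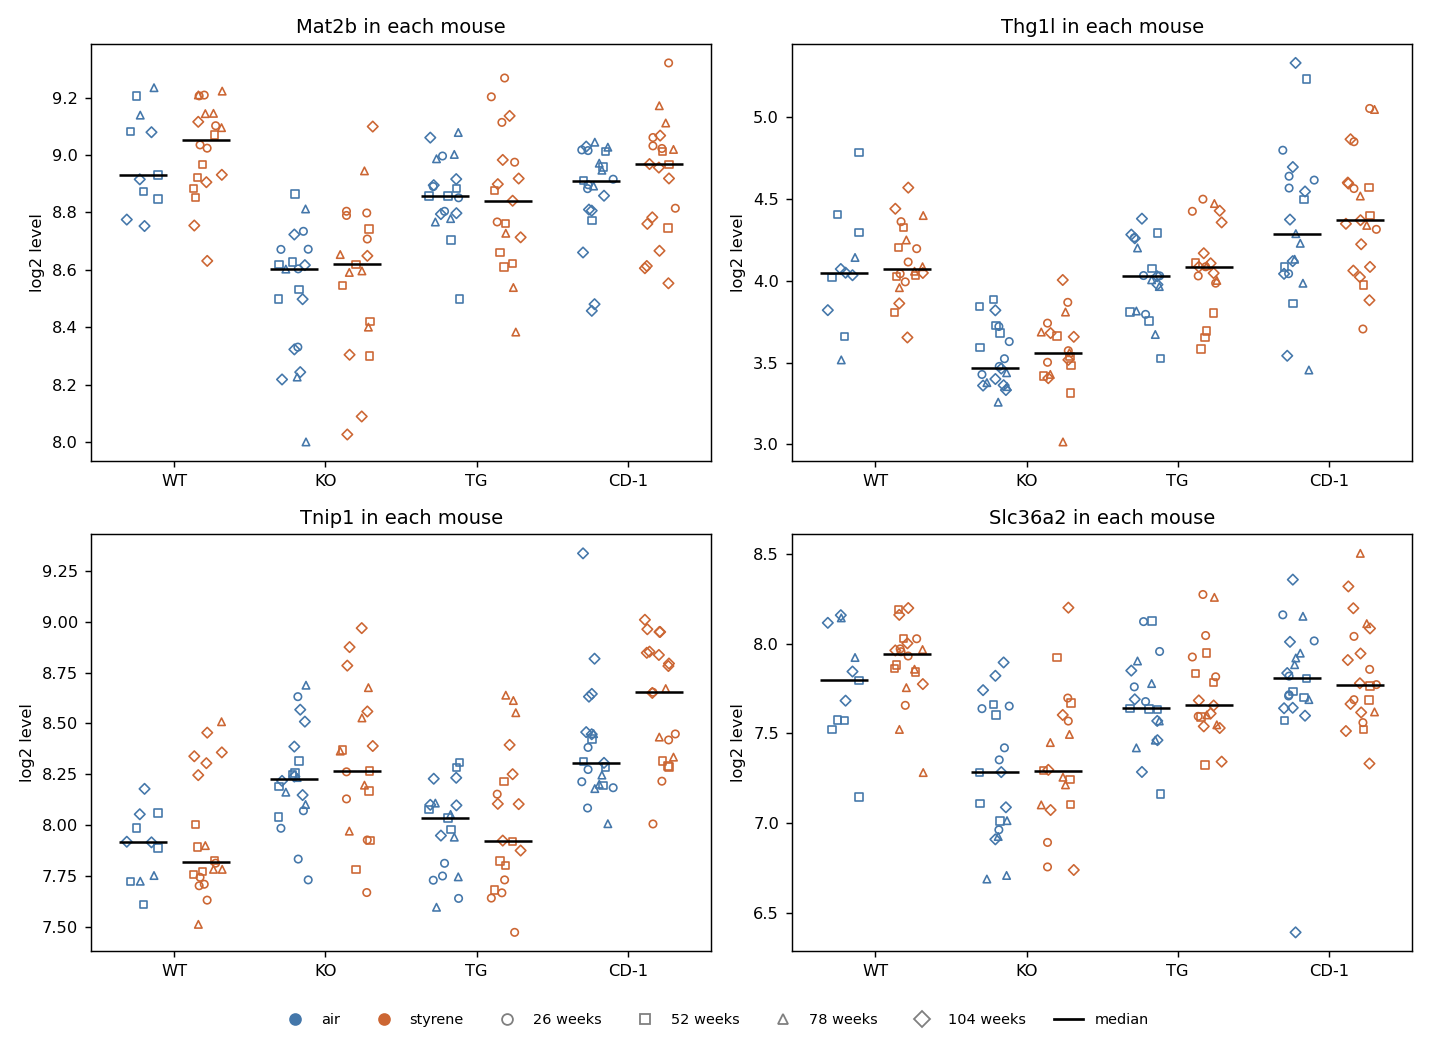
Log2 levels of Mat2b, Thg1l, Tnip1 and Slc36a2 in every mouse, by line and exposure. KO mice sit lower than WT mice in Mat2b, Thg1l and Slc36a2 and higher in Tnip1, with overlapping ranges in each.

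Of the SEC14-like lipid-binding genes, Sec14l2 was lower in exposed KO lungs, and Sec14l4 did not pass the test. Exposed WT mice ranged from 5.39 to 7.20 in Sec14l2 with a median of 6.22, and exposed KO mice from 4.88 to 6.42 with a median of 5.59. Of the KO mice, 14 of 19 were below the WT mean. KO minus WT was -0.52 (SE 0.128, adjusted p = 0.0092), and -0.40 (adjusted p = 0.191) over weeks 26 and 52. TG minus KO was 0.20 with an interval of -0.06 to 0.46, TG minus WT -0.32 with an interval of -0.58 to -0.06 and an adjusted p of 0.162, and CD-1 minus WT 0.24 with an interval of -0.03 to 0.51.

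For Sec14l4, exposed WT mice lay between 7.20 and 8.14 with a median of 7.73. Exposed KO mice ranged from 4.97 to 8.21 with a median of 7.09, so that 11 of 19 were below every WT mouse and 1 was above every one. KO minus WT was -0.62 (SE 0.202, interval -1.02 to -0.22), with an adjusted p of 0.0813 that fell under the threshold without the fifth KO mouse at 78 weeks (0.043) or the second at 104 weeks (0.0466). Over weeks 26 and 52 it was -0.41 (adjusted p = 0.424). TG minus KO was 0.37 with an interval of -0.04 to 0.78, TG minus WT -0.24 with an interval of -0.65 to 0.16, and CD-1 minus WT -0.23 with an interval of -0.66 to 0.20. These intervals rest on a variance shared by all 31 groups. The SDs of exposed mice were 0.23 in WT, 0.74 in KO, 0.80 in TG and 0.20 in CD-1. Of the exposed CD-1 mice, 17 of 21 were below the WT mean, as were 11 of 19 TG mice.

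Over both exposures, 7 KO mice had Sec14l4 between 4.07 and 5.14 and the next lay at 6.08. These were 6 of 20 air and 1 of 19 styrene mice. In TG mice, 1 exposed mouse at 104 weeks read 4.75 and the next lowest 6.25. Of the 9 KO mice in the upper Pttg1 range, 1 was also among the 7 with low Sec14l4. By week, exposed KO minus WT in Sec14l4 was -0.72, -0.09, -0.47 and -1.19, each below 0 but uneven. Ciliated cell markers gave 0 of 5 calls in both KO minus WT (2 at an unadjusted p under 0.05) and TG minus KO (4), with list means of 6.64 to 7.64 in exposed WT, 6.69 to 7.65 in KO and 6.27 to 7.29 in TG mice. Their part in the Sec14l2 and Sec14l4 levels was not tested.

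**Figure D4:**
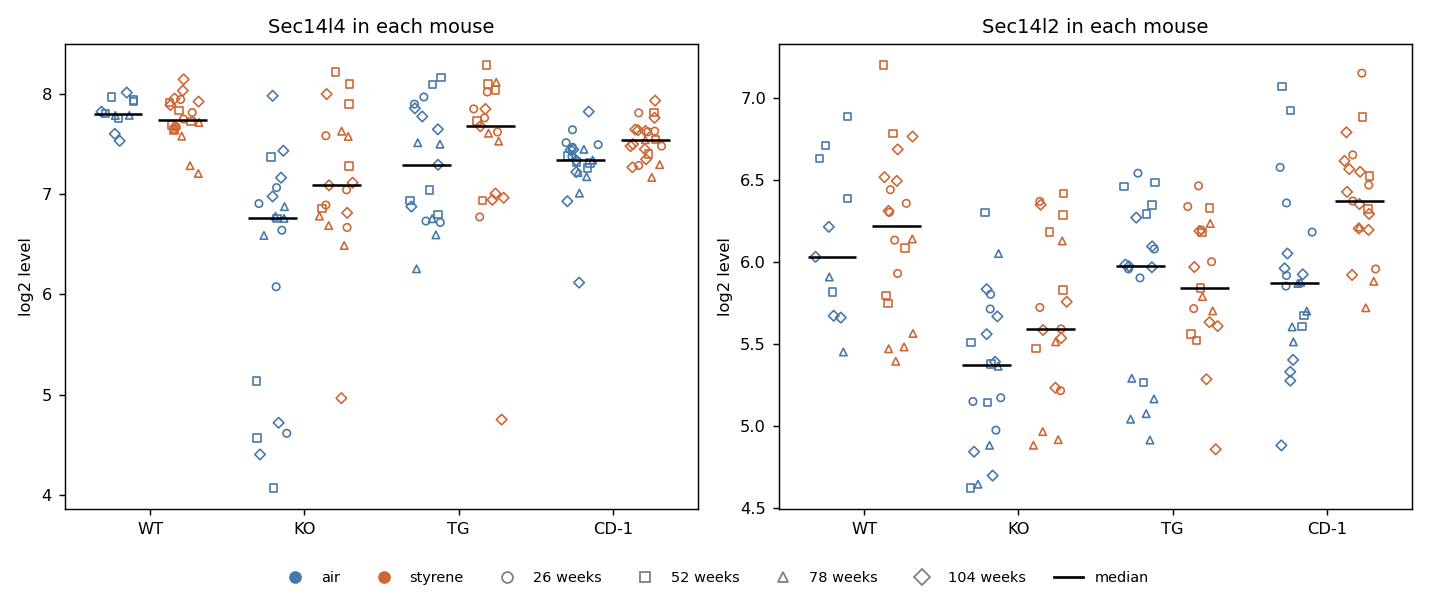
Log2 levels of Sec14l2 and Sec14l4 in every mouse by line, exposure and week. In Sec14l4, WT mice stay between 7.20 and 8.14, while 7 KO mice and 1 TG mouse lie at or below 5.14.

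Age was compared between exposed mice at 52 and 26 weeks, which lie on 1 plate but for 1 CD-1 array. None of the 7 genes was called by limma in any line. In WT mice 0 had an unadjusted p under 0.05, in KO 2, in TG 2 and in CD-1 0. Genes called in all were 1567 (9.98%) in WT, 2 (0.0127%) in KO, 283 (1.8%) in TG and 269 (1.71%) in CD-1 mice. The KO mean of Pttg1 was 10.63 at 26 weeks and 9.02 at 52 weeks, a difference of -1.61 (adjusted p = 0.24). Without the 1 low mouse at 26 weeks that difference was -2.14 (adjusted p = 0.0126). Mat2b in TG mice differed by -0.36 (adjusted p = 0.0667), and by -0.43 (adjusted p = 0.0435) without the third TG mouse at 26 weeks.

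Styrene was set against air with a test only in CD-1 mice, whose air arrays took no part in the choice. Over 26 to 78 weeks none of the 7 genes was called by limma, and 0 had an unadjusted p under 0.05, beside 131 genes called in all (0.835%). Pttg1 differed by 0.20 with an interval of -0.28 to 0.69, and Sec14l2 by 0.28 (adjusted p = 0.479). In KO mice, as a description, styrene minus air in Pttg1 was 1.26, -0.38, 0.29 and 0.78 at 26, 52, 78 and 104 weeks. In Sec14l4 it was 0.78, 2.09, 0.22 and 0.35. In CD-1 mice, Sec14l2 at 104 weeks, which that test left out, differed by 0.84 (interval 0.46 to 1.23). At 104 weeks exposure and array plate coincide in every line, apart from 2 KO and 2 TG exposed arrays whose plate is open, and at 78 weeks they coincide in KO and TG mice. There they cannot be told apart.

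Within a line, some of the genes rose and fell together from mouse to mouse. Deviations from group means were correlated for 78 combinations of gene pair and line. Pttg1 in KO mice was left out because its values fall into separate ranges. Sec14l4 in KO mice (gap of 0.94, 7 mice below) and Pttg1 in TG mice (gap of 0.32, 12 mice below) were kept. The part of such gaps in the correlations was not tested. By permutation within groups, 7 had a Benjamini-Hochberg adjusted p for Pearson's r under 0.05, and 5 of these were positive. Sec14l2 and Sec14l4 correlated in KO mice (r = 0.65, rho = 0.70, permutation p = 2e-05 for each, adjusted 0.00156, n = 39) and in TG mice (r = 0.66, rho = 0.64, permutation p = 7e-05, adjusted 0.00273 and 0.00182, n = 38). Without the 2 arrays farthest from the median in Sec14l2, r was 0.61 and 0.60. Sec14l4 took no part in picking those arrays.

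The other 3 positive pairs were all with Pttg1 in the 38 TG mice. With Thg1l, r was 0.60 and rho 0.65 (permutation p = 0.00012 and 7e-05, adjusted 0.00312 and 0.00182), and r was 0.60 without the 2 arrays farthest in Pttg1. With Slc36a2, r was 0.60 and rho 0.61 (permutation p = 0.00051 and 0.00038, adjusted 0.00994 and 0.00741), falling to r = 0.48. With Mat2b, r was 0.51 and rho 0.50 (permutation p = 0.00243 and 0.00334, adjusted 0.0316 and 0.0501), with r = 0.49 after leaving them out. A negative relation was seen for Pttg1 and Sec14l2 in 31 WT mice (r = -0.62, rho = -0.56, permutation p = 0.00134 and 0.00433, adjusted 0.0209 and 0.0501), with r = -0.68 without the 2 arrays farthest in Pttg1. The other negative pair was Mat2b and Tnip1 in 39 KO mice (r = -0.49, rho = -0.45, permutation p = 0.00316 and 0.00971, adjusted 0.0352 and 0.0842), with r = -0.38 without the 2 farthest in Mat2b. In air arrays alone no pair passed, and in styrene arrays alone 3 did. CD-1 mice gave 0 of 21 pairs.

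On the chromosome the genes fall into 3 groups. Among the 1289 tested genes in order, Sec14l4 and Sec14l2 were at places 18 and 21, Mat2b, Pttg1 and Thg1l at 181, 188 and 200, and Tnip1 and Slc36a2 at 286 and 291. Between the first and last lie 267 other tested genes. Of these, 12 (4.49%) were called in exposed KO minus WT, against 22 of 1015 (2.17%) elsewhere on the chromosome and 296 of 14406 (2.05%) on other chromosomes. For TG minus KO the shares were 6 (2.25%), 1 (0.0985%) and 65 (0.451%). For TG minus WT they were 8 (3%), 22 (2.17%) and 485 (3.37%), and for CD-1 minus WT 58 (21.7%), 172 (16.9%) and 2474 (17.2%). Over weeks 26 and 52 alone, the stretch gave 12 calls (4.49%) in KO minus WT and 2 (0.749%) in TG minus KO, beside 231 (1.6%) and 28 (0.194%) on other chromosomes. These shares are descriptions and were not tested against each other.

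**Figure D5:**
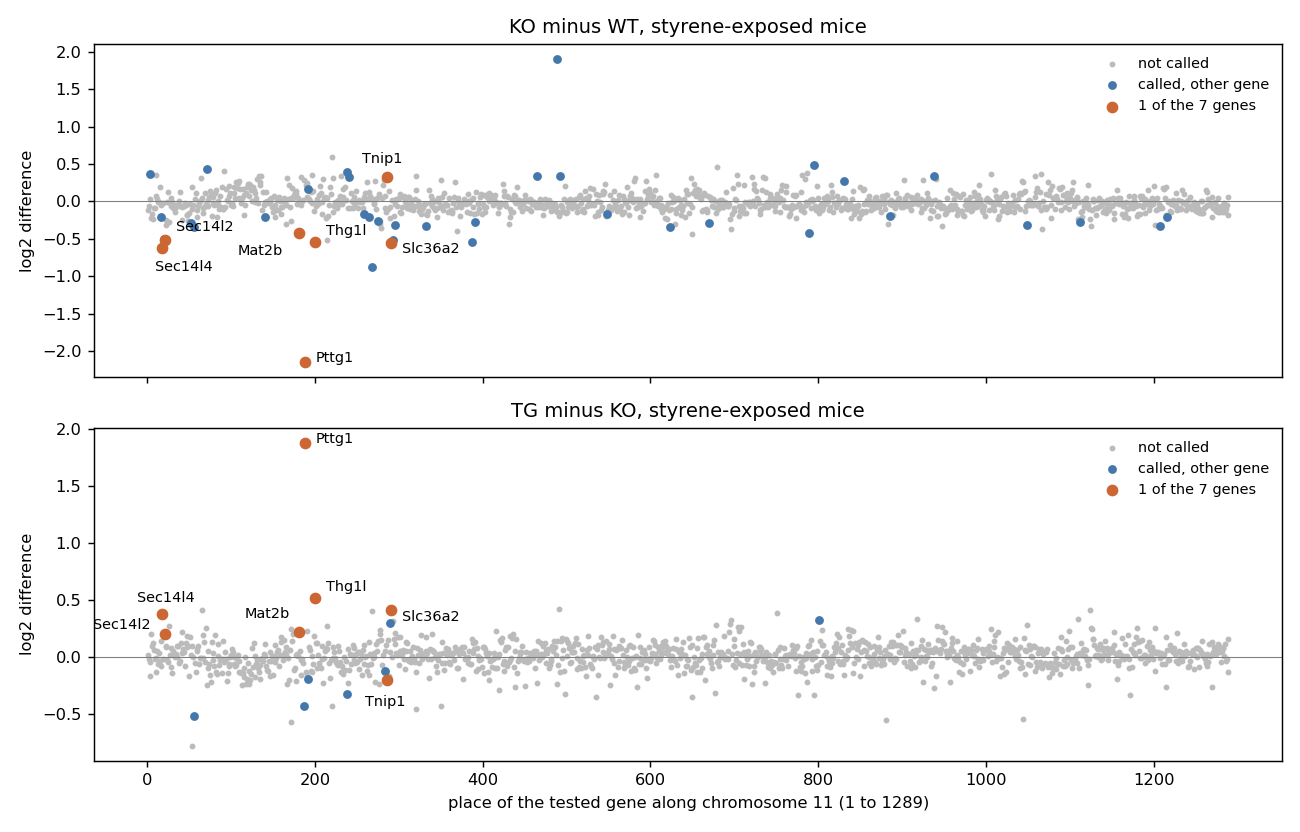
Differences in log2 level in exposed mice for the 1289 tested genes in their order along chromosome 11, for KO minus WT above and TG minus KO below; called genes and the 7 genes are coloured. The 7 genes lie between places 18 and 291, and Pttg1 is the lowest gene above and the highest below.

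Other genes in or next to the stretch were called as well. Besides Pttg1, Thg1l and Slc36a2, 3 chromosome 11 genes were called in both exposed comparisons: Camk2b, a subunit of the calcium and calmodulin dependent kinase (-0.34 for KO minus WT and -0.52 for TG minus KO), Ttc1 (0.17 and -0.19) and Zfp354a, a zinc finger gene (0.39 and -0.33). Slc36a1, the lysosomal relative of Slc36a2 at 2 places from it, was lower in exposed KO mice (-0.51, adjusted p = 1.08e-05), with TG minus KO of 0.32 (adjusted p = 0.074). Mtfp1, a mitochondrial fission gene next to Sec14l2, was at -0.50 (adjusted p = 0.000383), and Pes1 near Sec14l4 at -0.20 (adjusted p = 0.0296). Slc36a1 and Pes1 lie just outside the stretch. Sec14l3, which lies between the other SEC14-like genes and is abundant in airway cells, was at -0.03 (adjusted p = 0.819). In TG minus KO, Atp10b next to Pttg1 was at -0.43 (adjusted p = 0.0117), with Gm2a at 0.30 (adjusted p = 0.0225) and Hint1 at -0.12 (adjusted p = 0.0198) near Tnip1. Atp10b was dim, with a mean level of 3.41 over all arrays, close to the filter level. A430108G06Rik, called in both air comparisons, was at -0.87 (adjusted p = 2.75e-07) in exposed KO minus WT and 0.40 (adjusted p = 0.151) in TG minus KO.

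Fewer of these neighbours were called over weeks 26 and 52 alone. In KO minus WT, Zfp354a (0.47, adjusted p = 0.0111), Slc36a1 (-0.55, adjusted p = 0.00594), Mtfp1 (-0.61, adjusted p = 0.01) and A430108G06Rik (-0.64, adjusted p = 0.0458) passed, while Camk2b (0.0647), Ttc1 (0.0531) and Pes1 (0.133) had adjusted p-values above the threshold. In TG minus KO, Atp10b (-0.63, adjusted p = 0.0116) and Camk2b (-0.48, adjusted p = 0.0422) passed, while Ttc1 (0.525), Zfp354a (0.483), Gm2a (0.424) and Hint1 (0.552) did not. Camk2b differed from Pttg1 in its order of lines, being lower in TG than KO mice. Slu7 and Gabrb2, also beside Pttg1, were at 0.22 (adjusted p = 0.295) and 0.01 (adjusted p = 0.914) in KO minus WT.

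The genes whose levels followed each of the 7 most closely are given over the 58 exposed WT, KO and TG arrays as r of deviations from group means, a description across arrays that share processing. For Sec14l4 these were its neighbours Ccdc157 (0.84) and Rnf215 (0.67), then Gbp2b (-0.66), and for Sec14l2 Ccdc157 (0.72), Mtfp1 (0.68) and Rap1gap (0.65). Tnip1 followed the class II antigen presentation genes H2-Ab1 (0.78) and H2-DMa (0.73) and the lysosomal gene Grn (0.73). For Slc36a2 the closest was Wfikkn2 (0.64), for Mat2b Osgepl1 (0.63), for Thg1l Sgpp1 (-0.59) and for Pttg1 Ppa1 (-0.54). Over the 31 group means, Pttg1 was closest to Clmp (-0.80), C1qtnf7 (0.80), 2610035D17Rik (0.78), Hepacam (-0.78) and A430108G06Rik (0.77).

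Other genes of the same pathways were counted in the exposed lines. Over all genes, 2.14% were called in KO minus WT and 0.478% in TG minus KO, so lists this short can hold 0 calls at the background rate. Of 15 tested anaphase and cohesin genes, the processes that securin controls, 0 were called in KO minus WT (4 at an unadjusted p under 0.05) and 0 in TG minus KO (0). The smallest p in KO minus WT was that of the cohesin gene Smc3 (0.35, adjusted p = 0.108). The 3 proliferation markers tested gave 0 calls in both (0 and 0 unadjusted). Of 8 methionine cycle genes, 0 were called in either (1 and 0 unadjusted), the nearest being Mat1a (-0.33, adjusted p = 0.117). In CD-1 minus WT, Mtrr was higher by 0.36 and Nnmt, which uses S-adenosylmethionine to methylate nicotinamide, was lower (-2.02).

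Of 12 A20 and NF-kappaB genes, 0 were called in KO minus WT (3 unadjusted) and 0 in TG minus KO (2). Ikbkg, a subunit of the kinase that activates NF-kappaB, was lower in exposed TG than WT mice (-0.25, adjusted p = 0.000781, and 0.426 over weeks 26 and 52). Traf1 was lower in CD-1 than WT mice (-0.34). Of 4 genes for histidine transfer RNA, 0 were called in KO minus WT (0 unadjusted) and 0 in TG minus KO (1), and Hars, its synthetase, was higher in CD-1 mice by 0.49 (adjusted p = 8.62e-16). Of 5 other SEC14-like and CRAL-TRIO genes, 0 were called in either (1 and 0 unadjusted), with Ttpa nearest at 0.32 (adjusted p = 0.061). Of the 2 tested SLC36 relatives, Slc36a1 was called in KO minus WT.

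Among lung cell markers, exposed KO minus WT called Abca3 of the 5 tested alveolar type 2 genes (-0.18, adjusted p = 0.015, and 0.171 over weeks 26 and 52) and Cyp2f2 of the 5 club genes. No gene of the alveolar type 1, ciliated, endothelial, macrophage, B cell, heart muscle or adipose lists was called in KO minus WT or TG minus KO. At an unadjusted p under 0.05 the counts were 1, 2, 0, 1, 1, 0 and 0 in KO minus WT and 0, 4, 0, 1, 0, 2 and 0 in TG minus KO. Mean levels of the 5 heart muscle genes varied from 6.38 to 9.25 between exposed WT mice and from 6.56 to 8.86 between KO mice. CD-1 minus WT called 4 of 5 alveolar type 2 genes, 2 of 4 alveolar type 1, 1 of 5 club, 3 of 5 ciliated and 1 of 2 adipose genes, Adipoq at -1.69. The part of these cell types in the differences of the 7 genes was not tested.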

How the data were processed

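The deposited values are log2 levels that the authors made by RMA, with Partek also named, per the submitters' processing notes (versions not given in the sources used here). There were 150 arrays, 45037 probe sets, 28898 of them with 1 gene symbol, 551 with several and the rest unnamed here. Log2 values ran from 1.74 to 14.0, and the number of arrays limits the precision. Each line, exposure and week was 1 group, from the labels. The labels call the arrays biological replicates, 1 animal each.

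A gene was kept if it was above the array's 30th percentile in at least 3 arrays: 15695 were tested and 1402 left out. limma 3.58.1 in R 4.3.3 fitted 31 group means and a term for plate 2 over all arrays, weighting weeks equally, with Benjamini-Hochberg adjustment and a threshold of 0.05. The fit was tested on simulated data. For each gene it used a variance shared by all groups, so an interval between 2 lines also reflects the spread of the others. Plates were inferred from well labels, and 4 arrays could be on either of 2 plates. Permutations used numpy 2.4.6, with ranks from scipy 1.17.1.

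The members and lists were chosen with earlier results of these data known. Named genes follow a rule: the 7 genes, the 3 genes most correlated with each, the 3 neighbours on either side, chromosome 11 genes called in both exposed comparisons, and in each list the called genes or that of smallest p. Of these the text prints part, and the air-control genes named as just outside the choice were added afterwards. Replicate numbers do not pair the samples: over 70 same-numbered pairs of lines the correlation had a median of 0.059, and 24 were over 0.1. Alternatives were the plate term, the dim gene filter, the probe set rule, tumour-labelled mice, weeks, C57BL/6 arrays only, trend and robust fitting, the replicate block and leaving out single arrays.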

Additional observations from a re-analysis of the deposited data

Results flagged for a closer look

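In groups of 4 to 10 mice, 16 of 189 combinations of gene and group (8.47%) held a mouse far from the rest of its group, where chance alone gives about 1 in 20. Pttg1 gave 8 of the 16. Among KO mice the third air mouse at 26 weeks (11.16, next 9.09), the second air mouse at 52 weeks (11.28, next 9.36) and the fifth styrene mouse at 104 weeks (11.37, next 9.07) were high, and the third styrene mouse at 26 weeks was low (9.06, next 11.04). The fourth TG air mouse at 52 weeks was low (8.75, next 11.24). High Pttg1 also set apart the fifth CD-1 air mouse (9.48, next 8.89) and the first CD-1 (9.52, next 8.95) and WT (12.02, next 11.78) styrene mice at 26 weeks.

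In Mat2b the third KO styrene mouse at 26 weeks was low (8.71, next 8.79), by a small step. In Thg1l the first KO air mouse at 104 weeks was high (3.82, next 3.46) and the third WT air mouse at 104 weeks low (3.82, next 4.03). In Slc36a2 the third CD-1 air mouse at 104 weeks (6.39, next 7.60) and the fifth WT styrene mouse at 26 weeks (7.66, next 7.93) were low. In Sec14l2 the first TG air mouse at 52 weeks was low (5.26, next 6.29) and the fourth WT styrene mouse at 78 weeks high (6.14, next 5.56). In Sec14l4 the third TG styrene mouse at 104 weeks was low (4.75, next 6.94).

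In 4 cases every exposed mouse of a line moved one way from its air mean and every mouse of another line the opposite way, and none of these differences was tested. For Pttg1 at 52 weeks, styrene minus air was -0.38 in KO and 0.41 in TG mice, a difference of -0.78. Both values rest on the outlying air mouse of each line at that week: without it, as a choice made after seeing the data, they were 0.10 and -0.15, with both signs turned. At 78 weeks, all exposed KO and TG mice and 4 of 5 exposed WT mice lay on another plate than their air controls, and these differences have no plate term. For Mat2b at 78 weeks styrene minus air was -0.37 in TG and 0.12 in CD-1 mice, a difference of -0.50. For Slc36a2 at 78 weeks it was -0.36 in WT and 0.47 in KO mice, a difference of -0.82. For Sec14l4 at 78 weeks it was -0.30 in WT and 0.83 in TG mice, a difference of -1.12.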

How the results depend on the processing

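Of 2063 tested values of single genes recomputed under the alternatives, 2018 kept their side of the threshold, 23 lost and 21 gained a call. Also, 1 called value changed sign: Mat2b in exposed TG minus WT, at 0.05 (0.0474, adjusted p = 0.741) from 104 weeks only. Values not called could change sign and still count as kept. Sec14l2 in exposed TG minus KO, 0.20 over all weeks, was -0.10 at 104 weeks only. Sec14l4 in exposed TG minus WT, negative over all weeks, was 0.05 without 104 weeks. Leaving out 1 array made up 1379 of the 2063 values and 21 of the changes. Counts of the 7 genes called moved by over 1.5 times in few cases. With weeks 26 and 52 only, TG minus KO fell to 1 (beside 0.204% of all genes) and TG minus WT to 0 (0.478%). With 104 weeks only, KO minus WT fell to 2, beside 0.363% of all genes. TG minus WT rose to 3 there, beside 47.9% of all genes, a share that 3 of 7 does not exceed. With a plate 4 term and the open KO arrays on plate 3, TG 52 minus 26 weeks rose to 1, beside 286 genes in all. Correlated pairs fell from 7 to 0 in air arrays and 3 in styrene arrays. The cause was not tested, beyond fewer samples where arrays were left out. Leaving out 1 array at a time gave 6 to 7 genes for KO minus WT, 2 to 4 for TG minus KO, 0 to 1 for TG minus WT, 2 to 3 for CD-1 minus WT, 0 to 1 for KO and for TG 52 minus 26 weeks, and 0 to 0 for WT, CD-1 and CD-1 styrene minus air. It was not run for the TG and CD-1 styrene groups at 104 weeks, which hold 6 and 10 mice. Replicate numbers do not pair the mice: with the replicate block, the counts were 6, 3, 1 and 3 in the 4 line comparisons and 0 in the others, and no call of the 7 genes changed. Dropping 104 weeks, chosen after seeing the data, gave 5, 3, 1 and 3, beside 1.03%, 26.2%, 4.96% and 12.8% of all genes.

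Counts over all genes varied more. KO minus WT called 336 genes, but with a plate 4 term 186 (open KO arrays on plate 3) or 325 (open TG arrays on plate 3), 557 in C57BL/6 arrays only, 57 at 104 weeks only and 162 without 104 weeks. TG minus KO called 75, but 48 or 69 with that term in the same order, 122 without tumour-labelled mice, 226 in C57BL/6 arrays only, 32 over weeks 26 and 52, 6492 at 104 weeks and 4113 without it. TG minus WT called 516, but 75, 7516 and 778 over the same weeks, and CD-1 minus WT 2707, but 1606 over weeks 26 and 52 and 1440 at 104 weeks. TG 52 minus 26 weeks called 283, but 451 without tumour-labelled mice and 502 in C57BL/6 arrays only. CD-1 52 minus 26 weeks called 269, but 423 without a plate term and 448 without tumour-labelled mice, and KO 52 minus 26 weeks called 2, but 1 with the mean of probe sets. Thg1l and the neighbouring gene Atp10b lie near background, which limits their fold changes.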
